A study of Caenorhabditis elegans with 2 samples.

Results

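Genes for secreted peptide signals were examined for association of the transcription factor HLH-6 in late Caenorhabditis elegans embryos. All protein-coding genes whose symbols are flp-, nlp- or ins- followed by a number were taken, which gave 140 genes of 19973 coding genes in the Ensembl annotation of WBcel235. They comprised 31 flp genes, 71 nlp genes and 38 ins genes. The rule reads symbols and no signal values. Chromatin came from whole hermaphrodites of the strain RW10702, a transgenic line in which HLH-6 carried GFP and FLAG at its C-terminus. Embryos were taken 3.5 hours after egg bleaching and the chromatin was sonicated and precipitated with an antibody to GFP. The labels give 1 group of 2 biological replicates, so there was no second condition, and the values below describe genes rather than compare treatments. A control experiment is named in the labels and was not analysed here. The tagged protein came from a transgene, the libraries pooled every cell of the animal, and fewer cells with a bound site cannot be told apart from weaker occupancy per cell.

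The flp genes encode FMRFamide-like peptides, the nlp genes encode a mixed set of other neuropeptides that includes antimicrobial-type peptides of the epidermis, and the ins genes encode insulin-like peptides. The precursors are cut and modified in the secretory pathway, packed into dense-core vesicles and released, and most of the mature peptides act on G protein-coupled receptors, while insulin-like peptides act through the receptor DAF-2. HLH-6 belongs to the Achaete-Scute group of basic helix-loop-helix factors, which bind E-boxes of the form CANNTG, and is best known from pharyngeal gland cells.

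The sequences that carry the values below are the surroundings of the strongest flp region, of the 4 strongest member regions with an E-box at the summit, and of both member summits with the longest short-period repeats. Each of the first 7 runs holds 101 bases around the pooled summit on the plus strand of ce11, read from the NCBI RefSeq genome of WBcel235. Capitals mark bases of the neighbouring tRNA gene for flp-23, the E-box for nlp-14, ins-39, nlp-67 and flp-12, and the longest perfect repeat for nlp-81 and flp-14. The last run is the whole tRNA gene beside flp-23 on its own minus strand, at chrIII:8650381-8650452, with a match to GGTTCGANNCC, the B box of the internal RNA polymerase III promoter, in capitals. The windows lie at chrIII:8650421-8650521 for flp-23, chrX:8919444-8919544 for nlp-14, chrX:1345039-1345139 for ins-39, chrX:16184140-16184240 for nlp-67, chrX:4592512-4592612 for flp-12, chrIV:3176623-3176723 for nlp-81 and chrIII:12909976-12910076 for flp-14.
flp-23: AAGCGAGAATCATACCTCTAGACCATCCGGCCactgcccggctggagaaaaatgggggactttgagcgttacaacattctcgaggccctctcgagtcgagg
nlp-14: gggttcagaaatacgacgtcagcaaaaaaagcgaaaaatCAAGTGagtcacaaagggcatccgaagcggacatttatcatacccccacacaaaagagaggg
ins-39: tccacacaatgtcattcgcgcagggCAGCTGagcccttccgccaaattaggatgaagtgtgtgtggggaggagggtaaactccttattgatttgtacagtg
nlp-67: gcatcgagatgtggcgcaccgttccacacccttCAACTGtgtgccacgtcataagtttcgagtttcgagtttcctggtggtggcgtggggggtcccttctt
flp-12: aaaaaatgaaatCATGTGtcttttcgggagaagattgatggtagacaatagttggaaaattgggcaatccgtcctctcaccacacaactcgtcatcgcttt
nlp-81: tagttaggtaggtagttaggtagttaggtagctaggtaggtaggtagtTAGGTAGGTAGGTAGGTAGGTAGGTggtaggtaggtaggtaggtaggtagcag
flp-14: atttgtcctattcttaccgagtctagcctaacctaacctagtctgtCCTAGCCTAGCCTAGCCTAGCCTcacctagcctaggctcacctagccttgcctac
F22B7.t5: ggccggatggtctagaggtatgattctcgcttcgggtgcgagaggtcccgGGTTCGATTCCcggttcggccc

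The 4 ce11 lists of regions were read, each with 1 summit and 1 signal value per region. The signal value is the authors' own score for a region and its scale is not given, so it was used to rank regions within a list. The optimal list held 912 regions with signal values between 85.6 and 678, and these were the 912 strongest of the 30000 regions in the pooled list, which reached down to 22.5. The lists of the replicates held 30000 regions each, with values between 12.9 and 324 in replicate 1 and between 13.0 and 358 in replicate 2. These 3 long lists were made as input for the comparison of replicates and reach a −log10 q-value of 0.119 in the pooled list, 0.0663 in replicate 1 and 0.116 in replicate 2, so an entry low in them is not a binding call. No list gives reads, and the depth of each library is unknown. A gene was counted for a summit in its promoter window, which reached 1000 bp upstream and 200 bp downstream around every transcription start site, or for a summit in the gene body.

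The optimal list held few peptide genes at their promoters, namely flp-23 and nlp-14. A total of 2 of the 140 members had an optimal summit in the promoter window (1.43%, exact Clopper-Pearson 95% interval 0.173% to 5.07%), against 2.50% of all coding genes. None of the 38 ins genes had an optimal summit there, which allows a share of up to 9.25%. No optimal summit lay in a gene body of the 140 members, which allows up to 2.60%, against 1.96% of all coding genes. Both background values lie within the intervals, so these counts are not a result about peptide genes. The intervals cover the counting of genes only. Among the 912 strongest regions of replicate 1 by itself no member had a promoter summit, and among those of replicate 2 by itself flp-23, nlp-14 and ins-30 had one.

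The pooled list was read at 3 rank limits. Among its strongest 5000 regions, 9 members had a promoter summit (6.43%), against 9.55% of coding genes. Among the strongest 15000, 27 members did (19.3%), against 22.0%. In the whole list 43 members did (30.7%, interval 23.2% to 39.1%), against 36.0%. The strongest pooled promoter value had a median of 38.8 over those 43 members and 38.3 over the 7196 coding genes with such a region. By family the whole list held 12 of 31 flp genes (38.7%), 24 of 71 nlp genes (33.8%) and 7 of 38 ins genes (18.4%, interval 7.74% to 34.3%). The insulin-like genes were the family with the lowest share, and their interval lay below the share of coding genes. That interval treats genes as independent, although many ins genes lie side by side, and from the lists of single replicates the ins share came to 34.2% for replicate 1 and 31.6% for replicate 2. The distance to coding genes was smaller in these separate lists than in the pooled one.

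**Figure D1:**
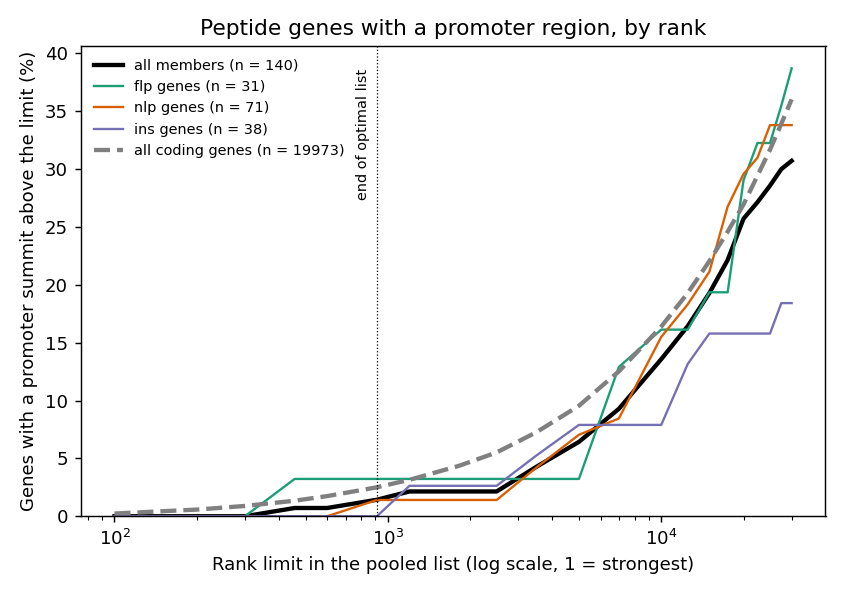
Share of genes with a pooled promoter summit (vertical axis, %) above each rank limit (horizontal axis, log scale), for all 140 members, each family and all 19973 coding genes (dashed). The line of all members lies below the dashed line at the limits of 5000, 15000 and 30000, the ins line ends at 18.4%, and the dotted line marks the end of the optimal list at rank 912.

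The replicates were compared at the members. Replicate 1 had a promoter summit for 55 members (39.3%), against 36.8% of coding genes, and replicate 2 for 53 (37.9%), against 35.4%. Both replicates had one for 33 members (23.6%), against 24.0%, namely 9 flp, 17 nlp and 7 ins genes. Another 22 members had a summit in replicate 1 only, 20 in replicate 2 only and 65 (46.4%) in neither, against 51.9% of coding genes in neither. For the 33 members in both lists the summits lay a median of 120 bp apart, and 21 (63.6%) lay within 200 bp of each other. The same measures over 4793 coding genes were 95 bp and 66.4%. Across the 33 members Spearman's rho between the signal values of the replicates was 0.498, and across the coding genes it was 0.516. These are descriptions across genes, which are not independent and share the 2 libraries.

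**Figure D2:**
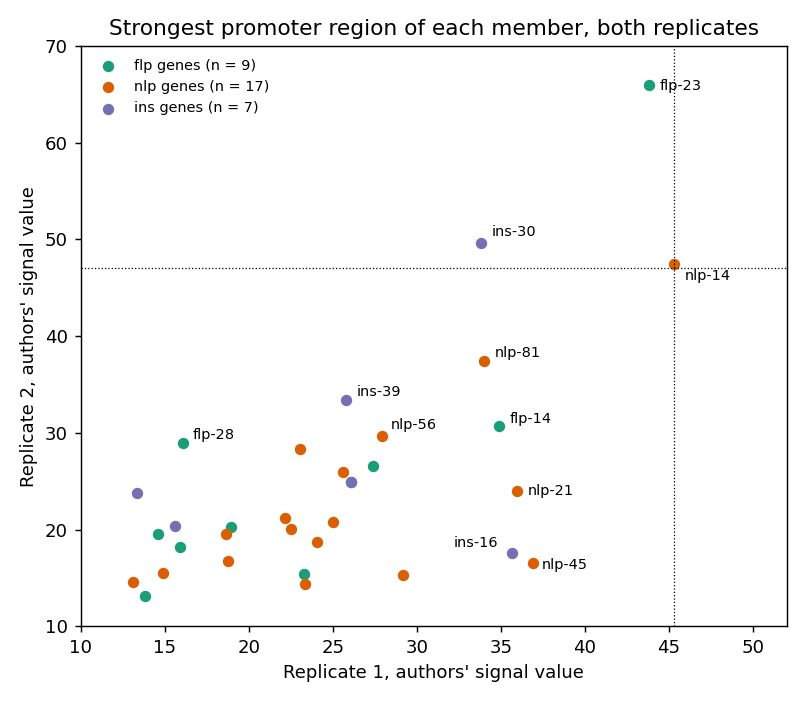
Signal value of the strongest promoter region in replicate 1 (horizontal axis) and replicate 2 (vertical axis) for the 33 members present in both lists, coloured by family, with dotted lines at the values of rank 912 in each list (45.3 and 47.0). Only nlp-14 sits at the crossing of both lines, flp-23 and ins-30 pass the line of replicate 2 alone, and nlp-45 and ins-16 are high in replicate 1 and low in replicate 2.

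Among the FMRFamide-like genes, flp-23 had the strongest region. The gene lies at chrIII:8650767-8652194 on the plus strand, and its region had a pooled value of 111.9 (rank 364 of 30000), with 43.8 in replicate 1 (rank 1039) and 66.0 in replicate 2 (rank 275). Its summit lay 296 bp upstream of the nearest start site, in no other coding gene's promoter window. The same summit lay 19 bp upstream of the start of F22B7.t5, a proline tRNA gene of 72 bp, and the summits of the replicates lay 13 bp upstream of that start in replicate 1 and 34 bp inside the tRNA gene in replicate 2. All 3 summits therefore lay closer to the tRNA gene than to flp-23, and the capitals at the left of the flp-23 sequence are the part of that gene nearest the pooled summit. Which gene the region belongs to was not tested. The B box letters printed for F22B7.t5 occur in 394 of the 612 annotated tRNA genes (64.4%).

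The other flp genes with strong regions were lower. The flp-12 region, 212 bp upstream, had a pooled value of 51.1 (rank 5328), with 27.4 in replicate 1 and 26.6 in replicate 2. The flp-28 region, 199 bp upstream and in an intron of W07E11.1, had 49.98 in the pooled list, 16.1 in replicate 1 and 29.0 in replicate 2. So flp-12 stood at like ranks in the replicates (5490 and 6864), whereas flp-28 stood at rank 20879 in replicate 1 and rank 5319 in replicate 2. At flp-14 the promoter region, 484 bp upstream, had 48.9 in the pooled list, 34.9 in replicate 1 and 30.7 in replicate 2, with the summits of the replicates 321 bp apart. An intron of flp-14 held a stronger pooled summit of 61.3 (rank 3021). The flp-4 region, 69 bp downstream of a start site, had 40.8 in the pooled list, 23.3 in replicate 1 and 15.4 in replicate 2, with the summits of the replicates 5567 bp apart, at different start sites. The flp-16 region, 449 bp upstream, had 34.2 in the pooled list and 16.7 in replicate 2, with no entry in replicate 1. Apart from flp-23, the named flp genes lay far below the end of the optimal list.

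Several well-studied flp genes had no promoter entry. The genes flp-1, which acts in locomotion, and flp-11, flp-13 and flp-24, which act in sleep, had no promoter summit in the pooled list or in either replicate. Of the ligands of the receptor NPR-1, known for its part in feeding behaviour, flp-21 had none and flp-18 had 17.9 in replicate 2 alone. Outside its promoter window, flp-13 had a pooled summit of 39.1 (rank 10926) in an intron. Its body summits had 18.3 in replicate 1 and 20.3 in replicate 2. Over all families, 64 members (45.7%) had no promoter entry in any of the 3 long lists, against 50.5% of coding genes. These were 13 flp, 31 nlp and 20 ins genes, so a gene without a promoter entry is common in either group.

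Among the other neuropeptide genes, nlp-14 had the strongest region. It encodes orcokinin-like peptides with a role in sleep and lies at chrX:8917423-8919423 on the minus strand. Its region had a pooled value of 86.6 (rank 866), with 45.3 in replicate 1 (rank 913) and 47.5 in replicate 2 (rank 874). The pooled summit lay 71 bp upstream of the start site and that of replicate 2 lay 67 bp upstream, while that of replicate 1 lay 232 bp upstream. With a lowest optimal value of 85.6, nlp-14 stood near the end of the optimal list, and in replicate 1 it stood 1 place past the same number of regions. Its E-box CAAGTG began 11 bp from the summit, as printed above, and no short RNA gene lay within 200 bp.

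The next nlp genes lay outside the optimal list. The nlp-21 region, 31 bp upstream, had 61.3 in the pooled list, 36.0 in replicate 1 and 23.9 in replicate 2. The nlp-81 region, 556 bp upstream, had 60.9 in the pooled list, 34.0 in replicate 1 and 37.4 in replicate 2. By ranks nlp-81 was more alike in the replicates (2657 and 2171) than nlp-21 was (2190 and 9144). The nlp-45 region, 54 bp inside the gene, had 55.8 in the pooled list, 36.9 in replicate 1 (rank 2001) and 16.5 in replicate 2 (rank 20786), so its pooled rank of 4075 stood beside unlike ranks in the replicates. The nlp-67 region, 179 bp upstream, had 55.2 in the pooled list, 25.6 in replicate 1 and 26.0 in replicate 2. The nlp-7 region, 335 bp upstream of a gene with a role in egg laying, had 49.6 in the pooled list, 23.0 in replicate 1 and 28.3 in replicate 2. These last genes had like values in the replicates and pooled ranks of 4202 and 5821.

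Some members were grouped by known role, here and for the insulin-like genes, with the groups set up after the values had been seen. Of the 10 antimicrobial-type genes nlp-24 to nlp-33, epidermal peptides of which some are induced by infection, 2 had a promoter summit in the pooled list, 4 in replicate 1 and 2 in replicate 2, and nlp-29 had none in any list. The 6 sleep peptides flp-11, flp-13, flp-24, nlp-8, nlp-14 and nlp-22 had 2 in the pooled list, 3 in replicate 1 and 1 in replicate 2. The pooled summit counted for nlp-22 lay 841 bp upstream, in coding sequence of the neighbouring gene nlp-23. Of nlp-3 and nlp-7, both with a role in egg laying, nlp-7 had a summit in every long list and nlp-3 only in replicate 1. The intestinal peptide gene nlp-40, which controls the defecation rhythm, had 43.9 in the pooled list, 25.0 in replicate 1 and 20.8 in replicate 2. Its pooled summit lay 120 bp upstream of an internal start site, in its own coding sequence. An intron of nlp-40 held a stronger pooled summit of 45.6. Among coding genes 36.0% had a promoter summit in the pooled list, 36.8% in replicate 1 and 35.4% in replicate 2, and groups this small do not allow their counts to be set apart from those shares. Of all these role groups, the optimal list held a promoter region at nlp-14 alone.

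Among the insulin-like genes, ins-30 had the strongest region and missed the optimal list. It lies at chrI:14034954-14036057 on the minus strand, and its summit lay 100 bp downstream of the start site, in its own coding sequence. The region had 81.1 in the pooled list (rank 1114), 33.8 in replicate 1 (rank 2701) and 49.6 in replicate 2 (rank 729). It passed the rank of 912 in replicate 2 alone. The ins-39 region, 668 bp upstream, had 63.2 in the pooled list, 25.8 in replicate 1 and 33.4 in replicate 2. The ins-16 region, 537 bp upstream, had 54.7 in the pooled list, 35.6 in replicate 1 (rank 2277) and 17.6 in replicate 2 (rank 18472). So ins-16, like nlp-45, ranked far higher in replicate 1 than in replicate 2. The divergent genes ins-19 and ins-31 shared 1 region of 38.8 in the pooled list, 26.1 in replicate 1 and 25.0 in replicate 2. The ins-24 region, 66 bp inside the gene, had 36.5 in the pooled list, 13.4 in replicate 1 and 23.7 in replicate 2.

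Insulin-like genes with known actions on DAF-2 were read in the same way. Of the agonist genes ins-4, ins-6 and ins-7, only ins-7 had a promoter summit, of 16.8 in replicate 1 (rank 19326). Neither of the antagonist genes ins-1 and ins-18 had any in the 3 long lists. The agonist gene daf-28, which the symbol rule leaves out, had 19.3 in replicate 1 and 18.2 in replicate 2, downstream of a start site. None of these 6 genes had a pooled or optimal promoter summit, a state shared by most coding genes.

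**Figure D3:**
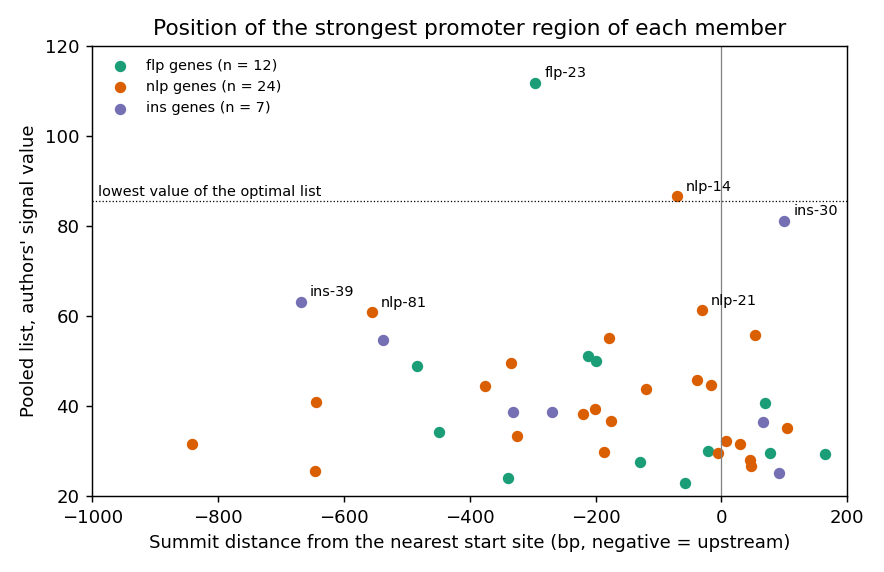
Signal value in the pooled list (vertical axis) against the distance of the summit from the nearest start site (horizontal axis, bp, negative upstream) for the strongest promoter region of 43 members, coloured by family. Only flp-23 and nlp-14 lie above the dotted line, the lowest value of the optimal list (85.6), and ins-30 lies just below it inside its own gene.

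The position of the member regions was then described. Summits lay a median of 176 bp upstream of the nearest start site in the 43 members and 279 bp upstream in the 7196 coding genes with a region. In the members 31 summits lay upstream, 18 of them within 300 bp, and 12 lay at or downstream of the start. The 43 members had 41 distinct regions, since ins-19 shared its region with ins-31 and nlp-22 shared its region with nlp-23. The nlp-4 region also lay in the promoter window of exos-3. Of these 41 summits 21 were intergenic, 12 in coding sequence, 5 in introns and 3 in other exons. All 5 intron summits lay in other genes, those of flp-27 in C25H3.11, flp-28 in W07E11.1, nlp-48 in rgr-1, nlp-50 in agr-1 and nlp-69 in sec-23. The nlp-25 summit lay in coding sequence of kcnl-1, and the nlp-12 summit in an exon of emr-1. The GC content of the whole promoter window was 38.7% (median) in members with a region and 34.2% in members without one, against 36.9% and 33.9% in coding genes with and without one. GC content thus moved with the presence of a region in members as in coding genes, and its part in the result was not tested.

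Summits in gene bodies were read beside gene length. A pooled summit lay in the body of 40 members (28.6%), against 45.4% of coding genes, and the median length was 888 bp in members and 2027 bp in coding genes. In genes under 1000 bp, 16 of 76 members had one (21.1%), against 20.5%. From 1000 to under 2000 bp it was 15 of 35 members (42.9%), against 34.5%. From 2000 bp it was 9 of 29 (31.0%, interval 15.3% to 50.8%), against 61.2%. That last class is open, with members up to 7245 bp and coding genes up to 102756 bp, so lengths within it were not matched. The share was higher in each longer class of coding genes but not of members, which were close to coding genes in the shortest class, above them in the middle class and below them in the longest. The strongest body summits outside promoter windows were in the coding sequences of nlp-68 (72.6 in the pooled list, 30.9 in replicate 1 and 39.4 in replicate 2) and of nlp-2 (72.3, 34.7 and 33.2 in the same order). The ins-37 coding sequence held 63.4 in the pooled list, 31.5 in replicate 1 and 28.6 in replicate 2. These 3 genes had no promoter summit in the pooled list.

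By chromosome, 34 members lie on X, where 14 had a pooled promoter summit (41.2%), against 39.7% of coding genes. Over all autosomes 29 of 106 members did (27.4%), against 35.5%. The share was 13.0% of 23 members on chromosome V, against 26.7% of coding genes there, and 15.8% of 19 members on chromosome IV, against 31.7%. It was 25.0% of 28 members on chromosome II, against 38.2%, and 42.1% of 19 members on chromosome I, against 44.8%. On chromosome III it was 47.1% of 17 members, against 43.0%, so that members did not lie on the same side of coding genes on every chromosome.

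Many members lie side by side. Members with starts at most 20000 bp from the next formed 8 clusters of 3 or more, with 35 members, of which 8 had a pooled promoter summit (22.9%), against 35 of the 105 other members (33.3%) and 36.0% of coding genes. No test was made of that difference, since neighbours are not independent. It is a reading of the pooled list. In replicate 1 the share was higher inside the clusters than outside them, and in replicate 2 it was lower. Most clustered members are ins genes, so position in a cluster cannot be told apart from family. The cluster of nlp-45, nlp-22, nlp-23 and nlp-2 at chrX:2337600-2344766 had 3 of 4 in each long list, with 1 pooled region shared by nlp-22 and nlp-23. The cluster of 7 insulin-like genes around ins-30, at chrI:14012369-14037777, had 3 in the pooled list and 4 in each replicate. The 6 insulin-like genes ins-2 to ins-6 and ins-20 at chrII:5988524-6011321, among them the agonist genes ins-4 and ins-6, had none in the pooled list, 2 in replicate 1 and 1 in replicate 2. The 6 genes nlp-27 to nlp-31 and nlp-34 at chrV:3978825-3989770 also had none in the pooled list, with 3 in replicate 1 and 1 in replicate 2. The nlp clusters thus ranged from no pooled region to a region at most of their genes.

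The letters at the summits were searched on both strands within 50 bp. The E-box CANNTG was present at 14 of the 41 member summits (34.1%), against 35.3% of 6324 summits in promoter windows of coding genes, and against 34.9% of windows of the same length at the 5′ ends of coding genes. A match is common by this count and does not by itself mark a bound site. Binding at the matches was not tested. The E-boxes printed above read CAAGTG at nlp-14, CAGCTG at ins-39, CAACTG at nlp-67 and CATGTG at flp-12, so the 4 strongest carried 4 different forms. CACACA was present at 5 member summits (12.2%), against 9.06%. GAGAGA was present at none of the 41, against 13.2%. A short RNA gene lay within 200 bp of 1 member summit, that of flp-23 (2.44%), against 2.17%. The GC content of the 101 bp at the summit had a median of 46.5% in members and 45.5% in coding genes.

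Short tandem repeats stood at 3 of the printed summits. At nlp-81 a perfect stretch of 25 bp with a period of 4 bp lay across the summit, a length reached by 33 of the 6324 summits (0.522%). At flp-14 a stretch of 23 bp with a period of 5 bp did so, a length reached by 45 summits (0.712%). At nlp-67 a stretch of 20 bp with a period of 7 bp lay in the printed window, a length reached by 85 summits (1.34%). No member summit held a stretch of 30 bp or more, against 0.300% of coding gene summits. The part of repeats in the signal values of these 3 genes was not tested.

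Genes that make, release or receive peptides were set beside the peptide genes. A pooled promoter summit was present at 7 of 11 precursor processing genes (63.6%), 9 of 12 genes of dense-core vesicle release (75.0%), 4 of 8 peptide genes with other symbols and 9 of 19 neuron genes (47.4%). It was present at 3 of 11 insulin signalling genes (27.3%), 2 of 11 caenacin genes (18.2%), which encode antimicrobial-type peptides, and 16 of 106 peptide receptor genes (15.1%, interval 8.88% to 23.4%). The members (30.7%) thus lay between the processing and release genes and the receptor genes, and the share over all coding genes was 36.0%. The interval of the release genes (42.8% to 94.5%) lay above that share and the receptor interval below it. The intervals of the other lists covered it, that of the processing genes with 30.8% to 89.1%. The counted summits of aex-5, ric-19 and vps-50 lay in coding sequence of the neighbouring genes unc-54, pmlr-1 and cey-4. That the release interval lay above the share of coding genes rests on counting ric-19 and vps-50. The share of coding genes counts summits of that kind as well. Genes with more start sites have a longer window. The upper quartile of window length was 2624 bp in the release genes, 1253 bp in the processing genes and 1295 bp in the receptor genes, against 1201 bp in members. The same quartile was 2466.5 bp in insulin signalling genes, 2090.5 bp in neuron genes, 1431 bp in peptide genes with other symbols and 1201 bp in caenacin genes. Start sites numbered up to 5 in release genes, up to 6 in processing genes and up to 5 in receptor genes, against up to 3 in members. The part of window length in these shares was not tested. The processing and release lists are short, their intervals are wide, and the difference from the members was not tested.

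**Figure D4:**
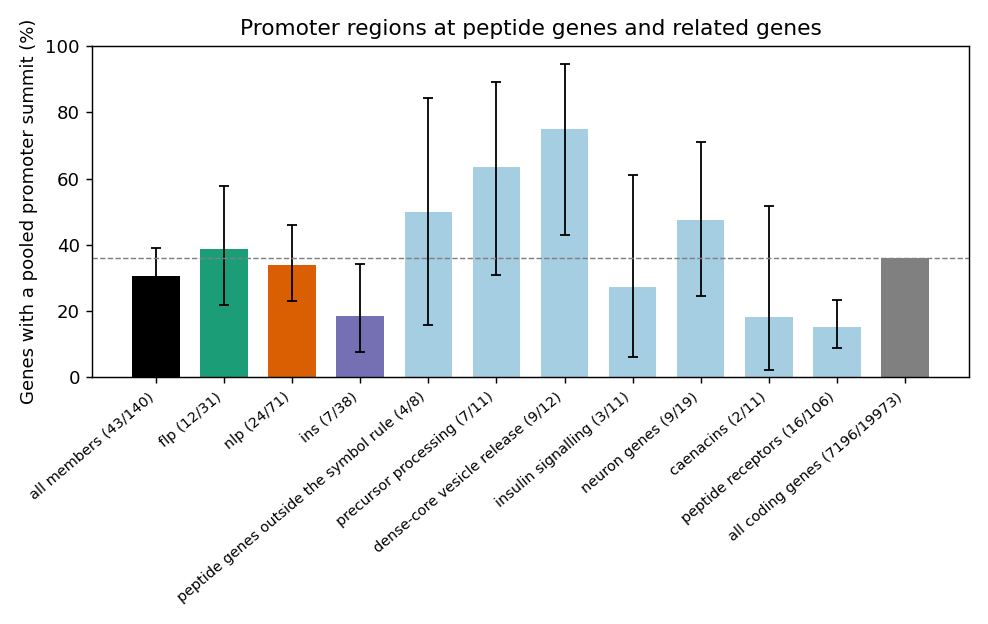
Share of genes with a pooled promoter summit (vertical axis, %) for all members, each family, 7 lists of related genes and all coding genes, with counts under the bars. Error bars are exact Clopper-Pearson 95% intervals over genes and the dashed line is the share of all coding genes (36.0%). The bars of dense-core vesicle release (75.0%) and precursor processing (63.6%) are the highest, and the receptor bar (15.1%) lies below that of the members (30.7%).

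Within the release list, pkc-1, a protein kinase C that promotes neuropeptide secretion, was the single related gene with an optimal promoter summit. Its region, 279 bp upstream of an internal start site and in its own intron, had 100.7 in the pooled list (rank 512), 61.5 in replicate 1 (rank 321) and 44.9 in replicate 2 (rank 1093). Its pooled value lay between those of flp-23 and nlp-14. Optimal summits in gene bodies were present in unc-104, the kinesin that carries dense-core vesicles (174.8, rank 112), in cat-1, the vesicular monoamine transporter (242.5, rank 62), and in bli-4, a proprotein convertase (97.3, rank 579). They were also present in the receptor genes npr-13 (105.0, rank 449) and ntr-1, the nematocin receptor (91.5, rank 714). All of these genes are longer than 5000 bp, whereas 76 of the 140 members are under 1000 bp.

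The strongest promoter regions of the other lists lay outside the optimal list. The gene egl-21, a carboxypeptidase that trims cut precursors, had 84.5 in the pooled list (rank 951), 32.8 in replicate 1 and 49.7 in replicate 2, just past the end of the optimal list. The gene daf-16, the FOXO factor downstream of DAF-2, had 76.7 in the pooled list, 27.8 in replicate 1 and 38.2 in replicate 2, in 1 of its introns. The receptor-like gene frpr-14 had 68.2 in the pooled list, 35.6 in replicate 1 and 38.6 in replicate 2, in a window shared with K07E8.7. In the pooled list these 3 promoter regions had higher values than those of every flp and nlp gene other than flp-23 and nlp-14. The vesicular GABA transporter gene unc-47 had 54.9 in the pooled list, 16.9 in replicate 1 and 37.1 in replicate 2. The peptide gene lury-1 had 38.5 in the pooled list, 19.6 in replicate 1 and 13.1 in replicate 2, and the caenacin gene cnc-11 had 27.9 in the pooled list, 19.0 in replicate 1 and no entry in replicate 2.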

How the data were processed

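The authors deposited narrowPeak lists on ce10 and on ce11, per the file headers (README texts). They comprise 1 list per replicate, 1 pooled list and 1 optimal list thresholded by IDR, a method that compares ranks between replicates. The optimal list held the 912 strongest pooled regions, so a region in it need not have like ranks in the replicates. Only the ce11 lists were used. The sources used here name no aligner, peak caller or IDR threshold. A region comes with a summit, a signal value, which is a score deposited by the authors on an unknown scale, and a deposited −log10 q-value. Scores were used only to describe and rank regions within a list. No reads are given, so depth is unknown.

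Summits were matched to Ensembl release 115 genes of WBcel235 in Python 3.11.15 with numpy 2.4.6, scipy 1.17.1 and matplotlib 3.10.9. The largest region end on X, 17718942, was the length of X in that assembly. Distances run from the summit to the nearest start site of the gene, negative upstream. A short RNA gene, meaning one annotated as tRNA, snRNA or snoRNA and no other class, was counted within 200 bp of a summit. The counting was checked on simulated regions. With 1 group and no control list there is no test, and counts stand beside the percentage over all coding genes. Named were members with an optimal summit, the 6 strongest of each family, the 5 best by the worse rank of both replicates, related genes with an optimal summit and the strongest related gene of each list. Any other gene named was picked with its values known. The members and lists were chosen with earlier results of these data known. Alternatives changed the list, the window, the overlap and the start sites. Columns without a matching sample numbered 0.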

Additional observations from a re-analysis of the deposited data

How the results depend on the processing

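With neither reads nor a control list, the precision of a signal value is unknown. Of 28 alternatives, 20 gave a count within 1.5 times that reported. The members' share lay below that of coding genes in 23 and at or above it in 5. Those 5 were the pooled promoter count from each replicate alone, the both-replicate count from gene 5′ ends, and both counts with 500 bp upstream. All alternatives for the optimal counts were among the 23, with counts of 0 to 3 genes. The alternatives reuse the same lists, so this tally does not measure a lower share of members. For the 2 members with an optimal promoter summit, taking the 912 strongest regions of each replicate alone gave 0 without replicate 2 and 3 (flp-23, nlp-14 and ins-30) without replicate 1. The strongest 456 optimal regions gave 1 (flp-23), and leaving out summits near short RNA genes gave 1 (nlp-14). For the 0 members with an optimal body summit, the range without a replicate was 0 to 1, the strongest 1824 pooled regions gave 3 (nlp-2, nlp-68 and ins-30) and an overlap of 1 bp gave 2 (nlp-4 and nlp-14). For the 43 members in the pooled list, each replicate alone gave 53 to 55 and the strongest 15000 regions gave 27. A window of 2000 bp upstream gave 49 (35.0%), against 49.3% of coding genes, and 500 bp gave 37 (26.4%), against 26.1%. For the 33 members in both replicates, the strongest 15000 regions of each list gave 17. A window of 2000 bp upstream gave 40 (28.6%), against 37.3% of coding genes, and 500 bp gave 26 (18.6%), against 15.7%. In both counts the side on which the members lay changed with window length. No paired analysis was possible because the samples form 1 group.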

Other observations

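Optimal regions also lay near 4 members outside their promoter windows, within 2000 bp of a start site. The strongest, with a signal value of 271 (rank 41), lay 1332 bp upstream of nlp-76, in an intron of the nuclear receptor gene nhr-17 and within 200 bp of the tRNA gene C02B4.t2. A region of 106.8 (rank 419) lay 101 bp past the end of nlp-4, near the snoRNA gene F59C6.15. A region of 102.9 (rank 477) lay 804 bp past the end of ins-13, near sls-2.2, a gene for a spliced leader RNA. A region of 97.7 (rank 564) lay 545 bp past the end of ins-37 with no short RNA gene near it. A short RNA gene thus lay near 3 of these 4 regions and near the flp-23 region, but not near the nlp-14 region. In the whole optimal list a short RNA gene lay near 223 of 912 summits (24.5%). The median distance from a start site to the nearest optimal summit was 35498 bp in members and 45472 bp in coding genes.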
